A study of Mus musculus with 8 samples.

Results

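Deubiquitinases of the USP and OTU families were followed as a set of 60 genes out of 18193 measured in mouse embryonic stem cells. Members were taken by name: the 1 gene symbol annotated to a probe set had to begin with Usp and a number, Otud and a number or letter, or Otub and a number. The rule took 51 USP genes and 9 OTU genes on 150 probe sets, and it used no measured value. It also took Usp6nl, a GTPase-activating protein that is not a deubiquitinase, and Usp46os2, a noncoding RNA from the strand opposite Usp46. Another 4 probe sets matched the rule but carried several symbols and were not used. Each gene was represented by its brightest probe set, and 15 members had only 1 probe set while no member had more than 7.

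Deubiquitinases are proteases that cut ubiquitin from proteins or from ubiquitin chains. They can spare a protein from degradation by the proteasome, change its activity or place, and return ubiquitin to the free pool. USP and OTU enzymes are both cysteine proteases. USP enzymes form the largest deubiquitinase family and are mostly told apart by their substrates, whereas many OTU enzymes prefer particular linkages between ubiquitins. In embryonic stem cells members of these families are known to act on histones, on Myc and on the p53 pathway.

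NG4 cells were given small interfering RNA (siRNA) by reverse transfection, in which cells are plated onto the siRNA, and RNA was taken 48 h later from 4 groups of 2 arrays each. The groups, all of the same line and handled the same way, received siNonTarget, a control without a target, siSox2, against a transcription factor of pluripotency, siPsmd14, against the deubiquitinase built into the proteasome lid, or siDdb1, against the protein that links substrate receptors to CUL4 ubiquitin ligases. The title of the series names members of the ubiquitin-proteasome system and self-renewal, so the question for each knockdown was which deubiquitinase transcripts moved with it. No label says whether the 2 arrays of a group came from separate cultures, so p-values reflect the scatter of these 8 arrays alone, and that scatter may be technical.

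The stem cell label held on every array, although stem cell markers averaged lower on every knockdown array than on either control array. The mean of 8 embryonic stem cell markers lay between 12.09 and 12.59 on the log2 scale, where the array medians lay between 4.78 and 4.85, and the mean of 8 fibroblast markers lay between 4.25 and 4.61. Each targeted transcript was below the control mean on both arrays of its group, at 83.6% and 69.8% for Sox2, 90.5% and 82.7% for Psmd14, and 22.1% and 46.1% for Ddb1, but none passed the test against siNonTarget (limma adjusted p = 0.301, 0.522 and 0.147). On the log2 scale, siPsmd14 replicate 1 had the largest gap between the Actb control probe sets near the 3′ and 5′ ends of the transcript, 0.346, while the other 7 had 0.096 to 0.214. Ribosomal 18S RNA, another control, read 13.09 on siPsmd14 replicate 2 and 12.71 on siDdb1 replicate 2, against 10.68 to 11.70 on the other 6. In bulk RNA, fewer cells of a type and less RNA per cell cannot be told apart.

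A member is said to have passed when its adjusted p in a limma model of all 8 arrays was below 0.05, with the adjustment made over all 45037 probe sets. Against siNonTarget, 1 of 60 members passed in siSox2 (4.28% of all genes passed), and 0 passed in siPsmd14 (1.89% of all genes) or in siDdb1 (0.0440%). The member was Usp28, which fell. Between knockdowns, 1 member, Usp46, passed when siPsmd14 was set against siSox2 (4.03% of all genes), and 4 members, Usp28, Usp44, Usp50 and Usp46, passed when siDdb1 was set against siSox2 (4.63%). None passed when siPsmd14 was set against siDdb1 (0.588%). An F test over the 4 groups called Usp28 alone (adjusted p = 0.0256, against 5.77% of all genes called), and Usp46, Usp50 and Usp44 came next at 0.0515, 0.0522 and 0.0524. The 3 comparisons with siNonTarget share its 2 arrays and those with siSox2 share its 2 arrays, so their results are not independent.

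The promoters of the members that passed are shown because these are the genes that the test called. Each of these calls was lost in some of the alternative fits described below. RefSeq sequence for the 250 bases before the transcription start (build GRCm38.p6) was held for 3 of the 4: Usp28 at chr9:48985135-48985384 on the plus strand, Usp46 at chr5:74068412-74068661 on the minus strand and Usp50 at chr2:126783461-126783710 on the minus strand. Each is written 5′ to 3′ toward its gene, and capitals mark matches to any of 4 motifs searched on both strands.
Usp28: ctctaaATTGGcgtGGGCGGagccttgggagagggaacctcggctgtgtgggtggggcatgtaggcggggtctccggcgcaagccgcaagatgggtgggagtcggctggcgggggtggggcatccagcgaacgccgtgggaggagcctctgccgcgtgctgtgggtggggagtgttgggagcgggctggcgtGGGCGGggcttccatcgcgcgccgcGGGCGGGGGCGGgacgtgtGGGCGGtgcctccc
Usp46: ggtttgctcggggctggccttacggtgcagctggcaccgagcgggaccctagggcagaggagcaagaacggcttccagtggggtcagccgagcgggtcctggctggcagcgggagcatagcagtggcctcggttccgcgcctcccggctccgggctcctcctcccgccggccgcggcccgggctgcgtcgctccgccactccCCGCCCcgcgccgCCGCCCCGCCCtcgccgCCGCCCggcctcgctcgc
Usp50: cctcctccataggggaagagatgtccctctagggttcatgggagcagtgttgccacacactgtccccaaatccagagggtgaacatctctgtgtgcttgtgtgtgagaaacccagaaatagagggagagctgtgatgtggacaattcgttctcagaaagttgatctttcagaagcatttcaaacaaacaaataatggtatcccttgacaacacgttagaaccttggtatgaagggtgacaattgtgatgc
The motifs were the SOX core CATTGT, the octamer ATGCAAAT, the GC box GGGCGG and the CCAAT box CCAAT. Usp28 held GGGCGG 5 times and CCAAT once, as ATTGG on the printed strand, and Usp46 held the GC box 4 times as CCGCCC, with 1 pair of matches overlapping. Usp50 held none of the 4 motifs. Of 32851 promoter windows of this length, 32.7% held the GC box, 33.8% the CCAAT box, 10.7% the SOX core and 1.6% the octamer. GC content was 73.2% for Usp28, 77.6% for Usp46 and 46.0% for Usp50, and the median over all windows was 52.4%. A match describes the letters only.

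Usp28, which removes ubiquitin from Myc and takes part in the DNA damage checkpoint with 53BP1, was the member that fell in siSox2. On the log2 scale its levels were 9.41 and 9.29 with siNonTarget, 8.32 and 7.63 with siSox2, 8.81 and 9.12 with siPsmd14, and 9.13 and 9.30 with siDdb1. Both siSox2 arrays lay below the other 6, and the siPsmd14 arrays lay below both controls by less. The fall in siSox2 was 2.59-fold, a log2 change of -1.37 with a 95% interval of -1.87 to -0.88 (adjusted p = 0.0132, both arrays below both controls). Usp28 was 2.36-fold higher in siDdb1 than in siSox2 (log2 difference 1.24, adjusted p = 0.0201). Against siSox2, siPsmd14 was higher by 0.99 on the log2 scale, with an adjusted p that rounds to 0.05 and did not pass. Against siNonTarget, the log2 differences of -0.39 in siPsmd14 and -0.14 in siDdb1 did not pass (adjusted p = 0.477 and 0.936). The call in siSox2 was lost without siNonTarget replicate 1 (adjusted p = 0.105), siNonTarget replicate 2 (0.115) or siSox2 replicate 2 (0.0696), and that in siDdb1 against siSox2 without siSox2 replicate 2 (0.104), siDdb1 replicate 1 (0.0893) or siDdb1 replicate 2 (0.0987). Both were also lost when 16 was added before the log2 (0.0524 and 0.0629), the second when only those 2 groups were modelled (0.0644), and the log2 change in siSox2 ran from -1.72 to -1.03 as each array was left out.

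Markers of other early lineages differed in the same comparison. In siSox2, 5 of 8 trophoblast markers rose (Plac1, Cdx2, Krt7, Gata3 and Ascl2), and the mean of the 8 was 7.44 and 7.79 on the siSox2 arrays against 5.22 to 5.27 on the control arrays and 5.61 to 6.01 on the other 4. Of 6 primitive endoderm markers, 2 rose (Gata6 and Dab2), and the mean of the 6 was 4.97 and 5.44 in siSox2, 4.25 and 4.31 in the controls and 4.49 to 4.72 on the other arrays. Of 8 fibroblast markers Pdgfrb rose and Thy1 fell in siSox2, and of 8 stem cell markers Esrrb fell. The stem cell mean was 12.424 and 12.585 on the control arrays. The siSox2 arrays read 12.24 and 12.085, the siPsmd14 arrays 12.113 and 12.265, the siDdb1 arrays 12.336 and 12.36. For these knockdowns in turn, the median log2 difference of the 8 markers was -0.39, -0.38 and -0.14. The highest was -0.04, -0.09 and 0.01. Whether they fell as a set was not tested. In siPsmd14, Krt7 was the only one of these markers that rose, and in siDdb1 none passed against siNonTarget. The trophoblast marker Eomes differed most in siDdb1, with a log2 difference of 1.41 from siNonTarget (adjusted p = 0.0853). It was higher in siDdb1 than in siSox2 by 1.04 (adjusted p = 0.0267), whereas Plac1, Cdx2, Krt7, Gata3 and Ascl2 were lower there. The part of these cell types in the differences of Usp28 and of the other members described here was not tested.

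Usp25, the closest relative of Usp28, did not pass in any comparison. Its log2 levels were 4.78 and 4.85 with siNonTarget, 5.29 and 5.57 with siSox2, 5.16 and 5.52 with siPsmd14, and 5.21 and 5.31 with siDdb1. All 6 knockdown arrays lay above both controls, with log2 differences of 0.61, 0.52 and 0.44 that did not pass (adjusted p = 0.0873, 0.167 and 0.502). A dimmer probe set of Usp25 differed by 0.02, 0.10 and -0.09. Of the other 3 enzymes of DNA repair and checkpoints on the list besides Usp28 and Usp47, Usp1, which acts on PCNA and FANCD2, had log2 changes of 0.08, -0.09 and -0.02 in siSox2, siPsmd14 and siDdb1. Its levels spanned only 11.94 to 12.18 over the 8 arrays. Usp45 and Usp48 did not pass either, and the lowest value among them was -0.32 for Usp48 in siDdb1 (adjusted p = 0.605).

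**Figure D1:**
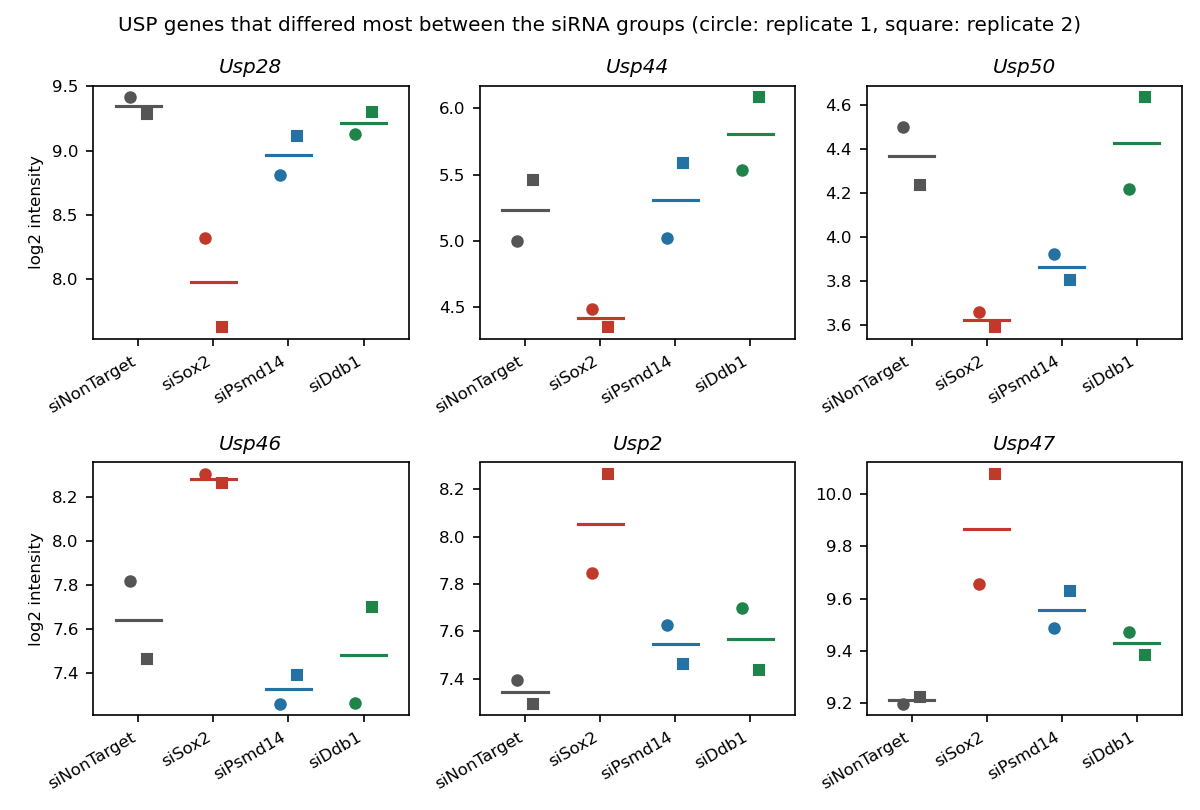
Log2 intensity of Usp28, Usp44, Usp50, Usp46, Usp2 and Usp47 on each of the 8 arrays, by siRNA group on the horizontal axis; circles are replicate 1, squares replicate 2 and lines the group means, and the vertical scale differs between panels. The siSox2 arrays are the lowest for Usp28 (8.32 and 7.63), Usp44 and Usp50 and the highest for Usp46 (8.31 and 8.26), Usp2 and Usp47.

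Usp47, which acts in base excision repair, had log2 levels of 9.20 and 9.23 with siNonTarget, 9.65 and 10.08 with siSox2, 9.49 and 9.63 with siPsmd14, and 9.47 and 9.38 with siDdb1. All 6 knockdown arrays were above the controls and siSox2 replicate 2 was the highest. The log2 difference in siSox2 was 0.65 (95% interval 0.30 to 1.01) and did not pass (adjusted p = 0.0646). It was 0.44 without siSox2 replicate 2 (adjusted p = 0.448) and 0.86 without siSox2 replicate 1, which passed (0.0270), with the lone siSox2 array assumed to vary like the other groups. The next brightest probe set of the gene differed by 0.61 (adjusted p = 0.0538) and the dimmest by 0.30 (adjusted p = 0.517).

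Among enzymes that act on ubiquitinated histones, Usp44, which cuts ubiquitin from histone H2B and holds back the anaphase-promoting complex, was the member that passed. It passed only between knockdowns. Log2 levels of Usp44 were 5.00 and 5.46 with siNonTarget, 4.49 and 4.35 with siSox2, 5.03 and 5.59 with siPsmd14, and 5.53 and 6.08 with siDdb1. The siSox2 arrays were the lowest and the siDdb1 arrays lay above both controls, with the siPsmd14 arrays overlapping both siNonTarget and siDdb1. Usp44 was 2.62-fold higher in siDdb1 than in siSox2 (log2 difference 1.39, 95% interval 0.84 to 1.95, adjusted p = 0.0201). Both siSox2 values were below the array medians of 4.78 and 4.81, so this fold rests on values at the dim end of the scale. Against siNonTarget the log2 differences of -0.81 in siSox2 and 0.58 in siDdb1 did not pass (adjusted p = 0.138 and 0.595). The call was lost without siSox2 replicate 1 (adjusted p = 0.0556), siSox2 replicate 2 (0.144) or siDdb1 replicate 2 (0.0987), and with 16 added before the log2 (0.0806).

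Usp27x, an X-linked relative of Usp22 that also acts on histone H2B, had log2 levels of 6.82 and 6.56 with siNonTarget, 6.93 and 7.23 with siSox2, 7.77 and 7.38 with siPsmd14, and 7.84 and 7.19 with siDdb1. Every knockdown array lay above both controls. The log2 differences of 0.39, 0.88 and 0.82 did not pass (adjusted p = 0.497, 0.117 and 0.355), and the second probe set of the gene gave 0.48, 0.69 and 0.72. Usp22 itself, the deubiquitinase of the SAGA coactivator, had levels of 10.49 and 10.46 with siNonTarget and 10.60 and 10.90 with siSox2, and log2 differences of 0.28, -0.02 and -0.10 that did not pass. Of the other 4 measured histone enzymes, Usp3, Usp16, Usp21 and Usp49, none passed in any comparison, and the log2 differences from siNonTarget ran from -0.42 (Usp49 in siPsmd14) to 0.33 (Usp3 in siPsmd14).

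Usp46 and Usp12 are close relatives that are switched on by the WD40 proteins Wdr48 and Wdr20. The log2 levels of Usp46 were 7.82 and 7.46 with siNonTarget, 8.31 and 8.26 with siSox2, 7.26 and 7.39 with siPsmd14, and 7.26 and 7.70 with siDdb1. The siSox2 arrays were the highest of the 8, and the control arrays lay between them and the siPsmd14 arrays. Usp46 was 1.94-fold lower in siPsmd14 than in siSox2 (log2 difference -0.96, 95% interval -1.36 to -0.56, adjusted p = 0.0261) and, in siDdb1, 1.74-fold lower than in siSox2 (-0.80, adjusted p = 0.0481). In siSox2 against siNonTarget the log2 difference of 0.64 did not pass (adjusted p = 0.106). A second probe set gave -1.11 for siPsmd14 against siSox2, which passed (adjusted p = 0.0447), and -0.90 for siDdb1 against siSox2, which did not (0.0885). The call for siPsmd14 was lost without either siSox2 array (adjusted p = 0.100 for replicate 1 and 0.143 for replicate 2) or either siPsmd14 array (0.141 and 0.0518), and with 16 added before the log2 (0.0600). The call for siDdb1 remained without siDdb1 replicate 2 but was lost without any 1 of the other 7 arrays (0.0612 to 0.252), and it passed in 6 of 18 alternatives in all.

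The partner Wdr20rt, a retrogene of Wdr20, was 1 of 12 partner genes on the list that passed. Its log2 levels were 5.38 and 5.28 with siNonTarget, 4.42 and 4.62 with siSox2, 4.99 and 5.06 with siPsmd14, and 5.06 and 4.98 with siDdb1. It fell by 0.81 on the log2 scale in siSox2 (adjusted p = 0.0126), and both siSox2 arrays lay below the other 6 and below their array medians, at the dim end of the scale. Wdr48 spanned 9.21 to 9.52 and Wdr20 8.84 to 9.18 over the 8 arrays, and neither passed. Usp12 read 8.52 and 8.42 with siNonTarget, 8.80 and 8.68 with siSox2, 8.32 and 8.60 with siPsmd14, and 8.07 and 8.33 with siDdb1. The siSox2 arrays were the highest and the siDdb1 arrays lay below both controls, and the log2 difference of -0.54 between siDdb1 and siSox2 did not pass (adjusted p = 0.107). Other members on the signalling list were Usp9x, a large X-linked enzyme with a role in TGF-beta signalling, Usp34, which acts on axin in Wnt signalling, and Usp11. Usp9x had log2 differences from siNonTarget of -0.001, -0.06 and -0.12 and Usp11 of -0.35, -0.14 and -0.44, and none of the 3 genes passed in any comparison.

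Usp50 passed in siDdb1 against siSox2, but it is a dim probe set. Its log2 levels were 4.50 and 4.24 with siNonTarget, 3.66 and 3.59 with siSox2, 3.92 and 3.80 with siPsmd14, and 4.22 and 4.63 with siDdb1. The siSox2 arrays were lowest, the siPsmd14 arrays next and the siDdb1 arrays spanned the controls, and all 8 values were below the array medians of 4.78 to 4.85. The log2 difference between siDdb1 and siSox2 was 0.80 (95% interval 0.43 to 1.17, adjusted p = 0.0371). A second probe set gave 0.04 for the same comparison (adjusted p = 0.963). In siSox2 against siNonTarget the log2 difference of -0.74 did not pass (adjusted p = 0.0505), and neither did that of -0.50 in siPsmd14 (adjusted p = 0.196). The call remained without either siPsmd14 array and was lost without any 1 of the other 6 arrays (0.0518 to 0.229), and it passed in 5 of 17 alternatives in all.

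Usp2, which acts on Mdm2 and cyclin D1 and is known as a gene of the circadian clock, was split between its 2 probe sets. On the brightest its log2 levels were 7.39 and 7.29 with siNonTarget, 7.84 and 8.26 with siSox2, 7.63 and 7.46 with siPsmd14, and 7.70 and 7.44 with siDdb1. On the other probe set they were 7.13 and 7.01, 7.91 and 8.42, 7.24 and 7.31, and 7.49 and 7.21 in the same order. On both probe sets the siSox2 arrays were the highest of the 8. The log2 difference in siSox2 was 0.71 on the brightest (95% interval 0.33 to 1.09), which did not pass (adjusted p = 0.0637), and 1.09 on the other, which did (adjusted p = 0.0158). That second probe set was also lower in the other knockdowns than in siSox2, with log2 differences of -0.89 for siPsmd14 (adjusted p = 0.0379) and -0.81 for siDdb1 (adjusted p = 0.0481). Among the 90 probe sets of members that were not the brightest, those of Usp2 and the second of Usp46 were the only ones that passed in any comparison. On the brightest probe set the difference was 0.50 without siSox2 replicate 2 (adjusted p = 0.447) and 0.92 without siSox2 replicate 1, which passed (0.0343), with the lone array assumed to vary like the other groups.

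Of the other 7 members that act on p53, Mdm2 or MdmX, none passed in any comparison. Usp7, which stabilises both Mdm2 and p53, had log2 levels of 12.38 and 12.57 with siNonTarget, 12.25 and 12.27 with siSox2, 12.10 and 12.40 with siPsmd14, and 12.32 and 12.29 with siDdb1. The siSox2 and siDdb1 arrays lay below both controls by small steps, with log2 differences of -0.22, -0.22 and -0.17 for the 3 knockdowns. Usp10, which acts on p53 in the cytoplasm, had differences of -0.30, -0.08 and -0.28. Usp4, Usp15 and Usp42 ranged from -0.13 to 0.21.

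Usp17la had the largest differences of any member, and none of them passed. It belongs to a mouse gene cluster of near-identical copies that act on cell cycle and growth proteins, so its 1 probe set may read related copies. Its log2 levels were 6.69 and 7.60 with siNonTarget, 8.47 and 11.03 with siSox2, 9.48 and 10.09 with siPsmd14, and 10.87 and 9.06 with siDdb1. All 6 knockdown arrays were above both controls, but the arrays of a group lay up to more than 2 log2 units apart. The log2 differences were 2.60 in siSox2 (95% interval 0.82 to 4.39), 2.64 in siPsmd14 (0.86 to 4.43) and 2.82 in siDdb1 (1.03 to 4.60). The adjusted p-values were 0.142, 0.159 and 0.355. With only the siPsmd14 and siNonTarget arrays in the model, the siPsmd14 difference passed (adjusted p = 0.0142). That model leaves out the siSox2 and siDdb1 arrays, the groups whose 2 arrays lay farthest apart. In the model of all groups the siPsmd14 difference ran from 2.186 to 3.095 as each array was left out.

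Genes known from the 2-cell embryo were looked at beside Usp17la, after its values had been seen. Zfp352 read 4.96 and 5.87 with siNonTarget, 5.32 and 6.95 with siSox2, 6.77 and 7.74 with siPsmd14, and 7.79 and 6.30 with siDdb1. Tcstv3 read 2.89 and 2.90, 3.34 and 5.03, 3.17 and 3.66, and 5.52 and 3.45 in the same order. For Usp17la, Zfp352, Tcstv3 and likewise Tcstv1 and Tdpoz1, siSox2 replicate 2 was above siSox2 replicate 1. For the same genes, siDdb1 replicate 1 was above siDdb1 replicate 2. Over all probe sets, deviations of replicate 1 from the group mean correlated between siSox2 and siDdb1 with r = -0.217. Opposite order in these groups was therefore a weak tendency of the arrays at large. The share of all genes with this order was not counted. Tcstv1 and Tdpoz1 were below the array median on both arrays of all 4 groups, and Tcstv3 on both arrays of 2 groups, at the dim end of the scale. None of the 4 genes passed in any comparison. For Zfp352 the log2 differences from siNonTarget were 0.72, 1.84 and 1.63 in siSox2, siPsmd14 and siDdb1.

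**Figure D2:**
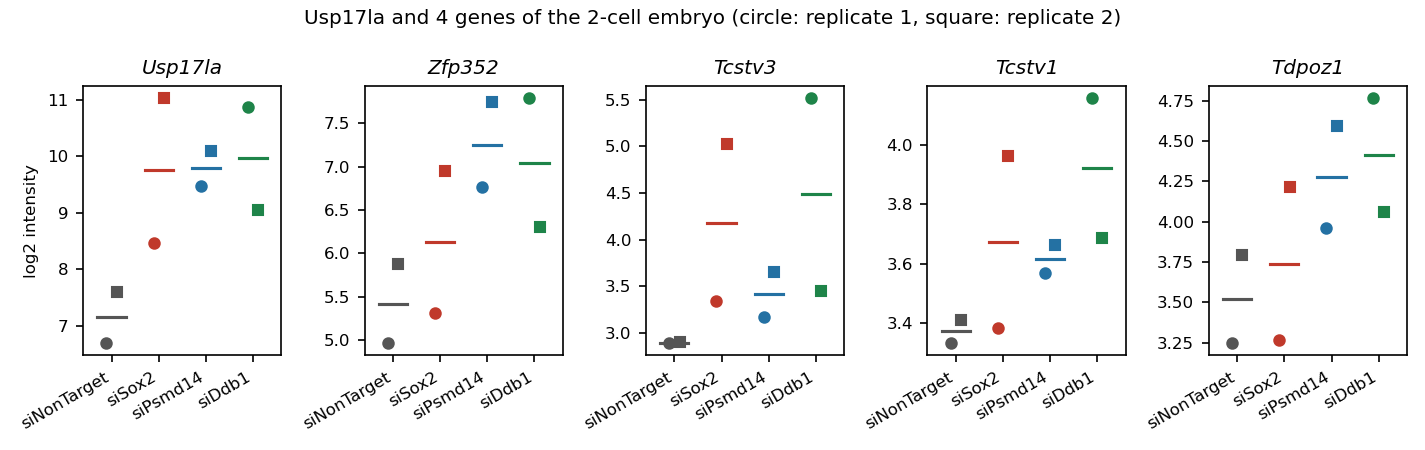
Log2 intensity of Usp17la and of Zfp352, Tcstv3, Tcstv1 and Tdpoz1 on the 8 arrays, by siRNA group on the horizontal axis; circles are replicate 1, squares replicate 2, lines the group means, and the vertical scale differs between panels. Usp17la lies at 6.69 and 7.60 in the controls and at 8.47 to 11.03 on the knockdown arrays, with siSox2 replicate 2 and siDdb1 replicate 1 on top.

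The other 2 members on the Myc and cell cycle list were Usp36, a nucleolar enzyme that acts on Myc, and Usp37, which acts on cyclin A. Usp36 had log2 differences of -0.20, -0.40 and -0.20 from siNonTarget, with an adjusted p of 0.271 in siPsmd14. Usp37 lay between -0.07 and -0.05 from the control mean in the 3 knockdowns, and neither passed between knockdowns.

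Otub1 came closest to passing in siPsmd14. It cuts chains linked through lysine 48 and also blocks the ubiquitin-conjugating enzyme Ube2n without cutting. On the log2 scale Otub1 read 10.23 and 10.21 with siNonTarget, 10.04 and 9.89 with siSox2, 9.70 and 9.44 with siPsmd14, and 10.10 and 9.90 with siDdb1. All 6 knockdown arrays lay below both controls and the siPsmd14 arrays were the lowest. The log2 difference in siPsmd14 was -0.65 (95% interval -0.97 to -0.33) and did not pass (adjusted p = 0.0688). The second probe set of Otub1 gave -0.10 (adjusted p = 0.789). Its relative Otub2, at 6.12 and 6.36 with siNonTarget, 6.09 and 6.12 with siSox2, 5.78 and 6.09 with siPsmd14, and 5.71 and 5.90 with siDdb1, also lay below both controls on all 6 arrays, narrowly so on siSox2 replicate 2. Its log2 difference was largest in siDdb1, at -0.44 (adjusted p = 0.481).

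For the OTU enzyme Otud3 the difference rested on 1 array. Log2 levels of Otud3 were 8.14 and 7.91 with siNonTarget, 8.31 and 8.14 with siSox2, 6.75 and 7.64 with siPsmd14, and 7.46 and 7.90 with siDdb1. siPsmd14 replicate 1 stood far below the other 7 arrays. The log2 differences of -0.83 against siNonTarget (95% interval -1.44 to -0.23) and -1.04 against siSox2 did not pass (adjusted p = 0.189 and 0.0861). Without siPsmd14 replicate 1 they were -0.39 and -0.59 (adjusted p = 0.602 and 0.305). Without siPsmd14 replicate 2 they were -1.28 and -1.48 and passed (0.0270 and 0.0145), and in both cases the lone array was assumed to vary like the other groups. A second probe set gave 0.17 in siPsmd14 against siNonTarget (adjusted p = 0.590). Otud5, which acts in innate immune signalling and on p53, had log2 differences of 0.24, 0.28 and -0.05 (adjusted p = 0.419 in siSox2 and 0.341 in siPsmd14). Otud1, Otud4, Otud6b, Otud7a and Otud7b did not pass in any comparison, with log2 differences from siNonTarget of -0.38 (Otud1 in siSox2) to 0.18 (Otud4 in siDdb1).

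Enzymes that work at the proteasome and on free chains were read beside the knockdown of Psmd14, itself a proteasomal deubiquitinase. Usp14, the USP enzyme bound to the proteasome, had log2 levels of 10.68 and 10.64 with siNonTarget, 10.75 and 10.75 with siSox2, 11.07 and 10.68 with siPsmd14, and 10.34 and 10.60 with siDdb1. siPsmd14 replicate 1 was the highest and both siDdb1 arrays the lowest. The log2 differences from siNonTarget were 0.09, 0.22 and -0.19 (adjusted p = 0.862, 0.592 and 0.841). Uchl5, the other proteasome-bound deubiquitinase and a member of the UCH family, spanned 11.15 to 11.56 over the 8 arrays and did not pass.

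Usp5, which breaks down free ubiquitin chains, read 9.46 and 9.41 with siNonTarget, 9.59 and 9.48 with siSox2, 10.05 and 9.55 with siPsmd14, and 9.13 and 9.12 with siDdb1. The siDdb1 arrays were the lowest and siPsmd14 replicate 1 the highest. In siPsmd14 against siDdb1 the log2 difference of 0.68 (95% interval 0.30 to 1.05) did not pass (adjusted p = 0.152). It was 0.42 without siPsmd14 replicate 1 (adjusted p = 0.573), and 0.93 without siPsmd14 replicate 2, which passed (0.0240). Each leaves siPsmd14 with 1 array that is assumed to vary like the other groups. Usp13, the relative of Usp5, had log2 differences from siNonTarget of 0.14, 0.28 and 0.11 and did not pass.

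Among the 6 members tied to endosomes, endoplasmic reticulum or mitochondria, Usp20 differed most. Usp20 and its relative Usp33 are known for acting on receptors and on the VHL pathway. Log2 levels of Usp20 were 5.84 and 5.86 with siNonTarget, 6.11 and 6.42 with siSox2, 6.71 and 6.16 with siPsmd14, and 5.78 and 5.44 with siDdb1. The siPsmd14 and siSox2 arrays lay above the controls and the siDdb1 arrays below them. In siPsmd14 the log2 difference was 0.59 from siNonTarget (adjusted p = 0.220) and 0.83 from siDdb1 (adjusted p = 0.153). With siPsmd14 down to 1 array, assumed to vary like the other groups, the latter was 0.55 without replicate 1 (adjusted p = 0.607) and 1.11 without replicate 2, which passed (0.0398). Another 3 probe sets of Usp20 gave -0.07 to 0.20 for it.

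Usp30, the deubiquitinase of the mitochondrial outer membrane, had log2 differences of 0.05, 0.22 and -0.12 from siNonTarget. Usp8 and Usp19, which work at endosomes and the endoplasmic reticulum, stayed between -0.07 and 0.20, and Usp33 had 0.07, 0.17 and 0.04. Usp32 lay above both controls on all 6 knockdown arrays with differences of 0.23, 0.27 and 0.20 that did not pass.

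Proteins of the set that are long classed as inactive or are no deubiquitinase were Usp39, Usp53, Usp54 and Usp6nl. Usp39 is a subunit of the spliceosome. It read 11.28 and 11.44 with siNonTarget, 11.17 and 11.00 with siSox2, 11.03 and 11.15 with siPsmd14, and 11.18 and 11.34 with siDdb1, and its log2 differences of -0.27, -0.27 and -0.10 did not pass (adjusted p = 0.394 in siSox2). The siSox2 and siPsmd14 arrays lay below both controls and the siDdb1 arrays overlapped them. Usp53 read 7.50 and 7.50 with siNonTarget, 7.54 and 7.46 with siSox2, 6.78 and 7.16 with siPsmd14, and 7.50 and 7.83 with siDdb1. Both siPsmd14 arrays were below the other 6, and the log2 difference was -0.53 from siNonTarget (adjusted p = 0.177) and -0.69 from siDdb1 (adjusted p = 0.144). The other 2 probe sets of Usp53 gave -0.13 each in siPsmd14. Usp54 and Usp6nl lay between -0.21 and -0.02 in the 3 knockdowns.

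For Otud3, Usp5, Usp20, Usp14 and Usp53, siPsmd14 replicate 1 was the array farthest from the controls, and it is the one with the wide gap between the Actb control probe sets. These genes were picked after their values were seen, and the share of all members or genes with this order was not counted. Usp31 had the same order. For Otub1 the array farthest from the controls was siPsmd14 replicate 2, at 9.44, and for Usp27x it was siDdb1 replicate 1, at 7.84. The part of RNA quality in these values was not tested.

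Of the members, 6 lay below the array medians on all 8 arrays, so their values are near the dim end of the scale. Usp18, which removes the ubiquitin-like protein ISG15 in the interferon response, read between 2.98 and 3.46. Usp26, known from the testis, read 3.04 to 3.48, and Usp29, an imprinted gene, 3.59 to 3.85. Usp9y, the Y-linked relative of Usp9x, read 3.26 to 4.0, with siDdb1 at 4.0 and 3.69 and a log2 difference of 0.46 from siNonTarget that did not pass (adjusted p = 0.467). Usp46os2 read 3.50 to 4.06 and Usp50 is described above. Apart from Usp50, none of the 6 passed in any comparison. Of the members on no role list, Usp24, Usp31, Usp38, Usp40, Usp43 and Usp46os2, none passed, and Usp31 was the most spread, with 6.48 for siPsmd14 replicate 1 while the remaining 7 arrays held 7.11 to 7.63.

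**Figure D3:**
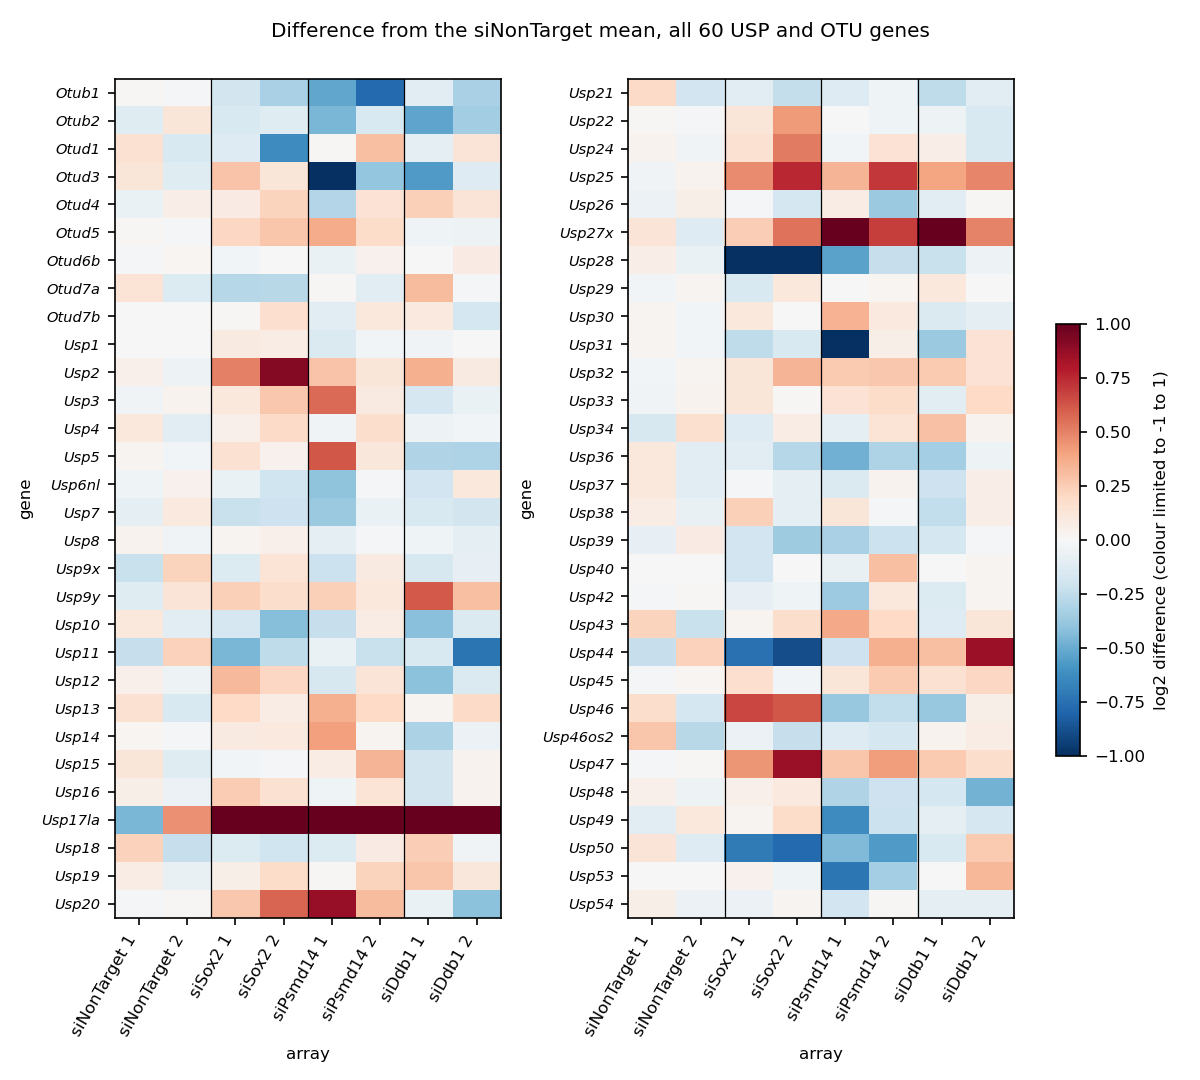
Log2 difference of each of the 60 USP and OTU genes from its siNonTarget mean on each of the 8 arrays (columns), as colour from blue, lower, to red, higher, with colours limited to -1 to 1. Usp17la is red on all 6 knockdown arrays, Usp28 is dark blue on both siSox2 arrays, and most other genes are pale.

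Without the adjustment, 11.7% to 23.3% of members were called per comparison, against 9.86% to 19.5% of all genes. At an unadjusted p below 0.05, limma called 8 of 60 members in siSox2 (19.1% of all genes), 11 in siPsmd14 (17.1%) and 7 in siDdb1 (9.86%). Between knockdowns it called 10 in siPsmd14 against siSox2 (19.5%), 14 in siDdb1 against siSox2 (19.0%) and 9 in siPsmd14 against siDdb1 (12.4%). Differences of 1.5-fold or more were found for 8 members in siSox2 (9.22% of all genes), 5 in siPsmd14 (7.26%) and 2 in siDdb1 (4.22%). The 2 in siDdb1 were Usp17la and Usp27x.

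Arrays of the 2 groups did not overlap for 35 members in siSox2 (52.6% of all genes), 27 in siPsmd14 (46.5%) and 27 in siDdb1 (42.2%). Over all 3 knockdowns, 6 members lay above both controls on all 6 arrays: Usp17la, Usp2, Usp25, Usp27x, Usp32 and Usp47 (5.87% of all genes did). Below both controls on all 6 were Otub1 and Otub2 (7.39% of all genes).

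For most members the arrays were close enough to bound the change in intensity. The 95% interval lay within 2-fold of siNonTarget in both directions for 53 of 60 members in siSox2 (89.8% of all genes), 55 in siPsmd14 (91.5%) and 57 in siDdb1 (94.3%). The exceptions in siSox2 were Usp17la, Usp2, Usp28, Usp44, Usp46, Usp47 and Usp50, those in siPsmd14 were Otud3, Usp17la, Usp20, Usp27x and Usp31, and those in siDdb1 were Usp17la, Usp27x and Usp44. A change below 2-fold is therefore not excluded for members that did not pass. The bounded members include Usp18, Usp26, Usp29, Usp46os2 and Usp9y, which lay below the array medians on every array. At the dim end of the scale a narrow interval says little about a change of the transcript.

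**Figure D4:**
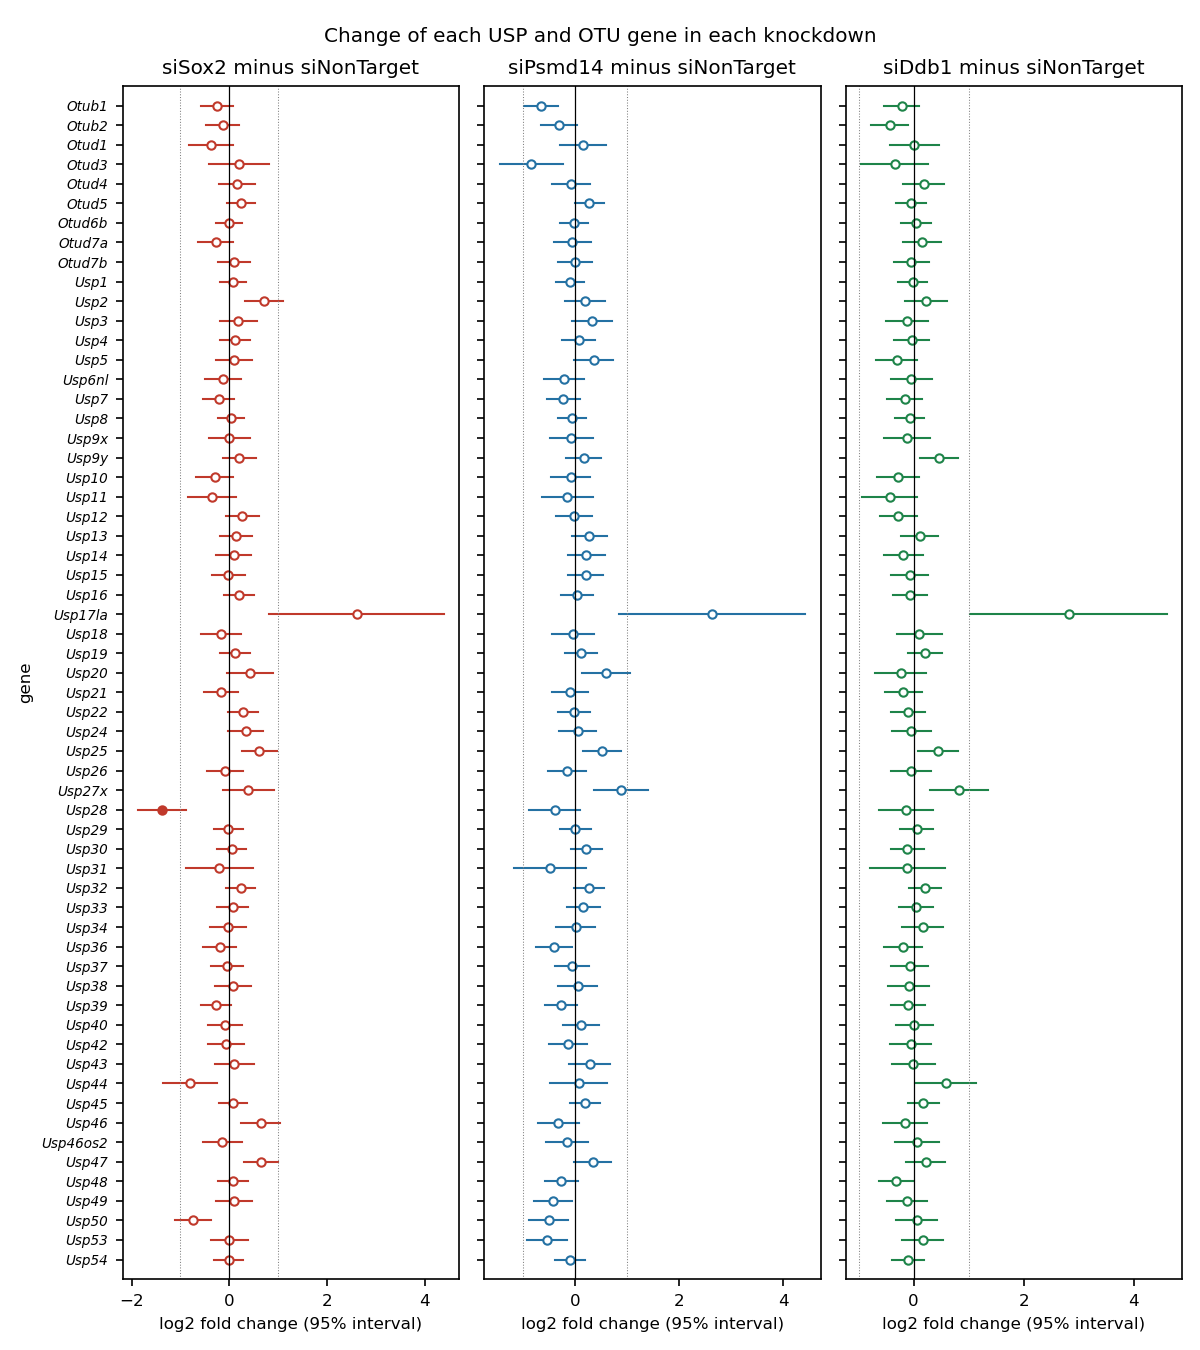
Log2 fold change of each of the 60 genes against siNonTarget in siSox2, siPsmd14 and siDdb1, with bars for the 95% interval, a filled circle where the adjusted p was below 0.05 and dotted lines at 2-fold. Usp28 in siSox2, at -1.37, is the only filled circle, and the widest intervals belong to Usp17la.

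Members went both ways, so a median describes the set only on balance. The median log2 difference from siNonTarget was 0.06 over the 60 members against -0.03 over all 18193 genes in siSox2, -0.012 against -0.015 in siPsmd14, and -0.05 against -0.015 in siDdb1. In siDdb1, 37 of 60 members and 9672 of all 18193 genes were below 0. Among the 53 members in the brighter 50% of probe sets, the siDdb1 median was -0.07, with 36 below 0. The brighter 50% of all genes were not counted in this way, so that figure has no like background. Between the 2 arrays of a group, the median SD of members was 0.0874 in siNonTarget, 0.100 in siSox2, 0.150 in siPsmd14 and 0.150 in siDdb1, where all genes had 0.103, 0.103, 0.125 and 0.107. The members' median distance from the control mean was -0.07 and 0.09 on the siPsmd14 arrays and -0.10 and 0.01 on the siDdb1 arrays. The siSox2 arrays, at 0.03 and 0.05, and the siNonTarget arrays, at 0.02 and -0.02, lay closer together.

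**Figure D5:**
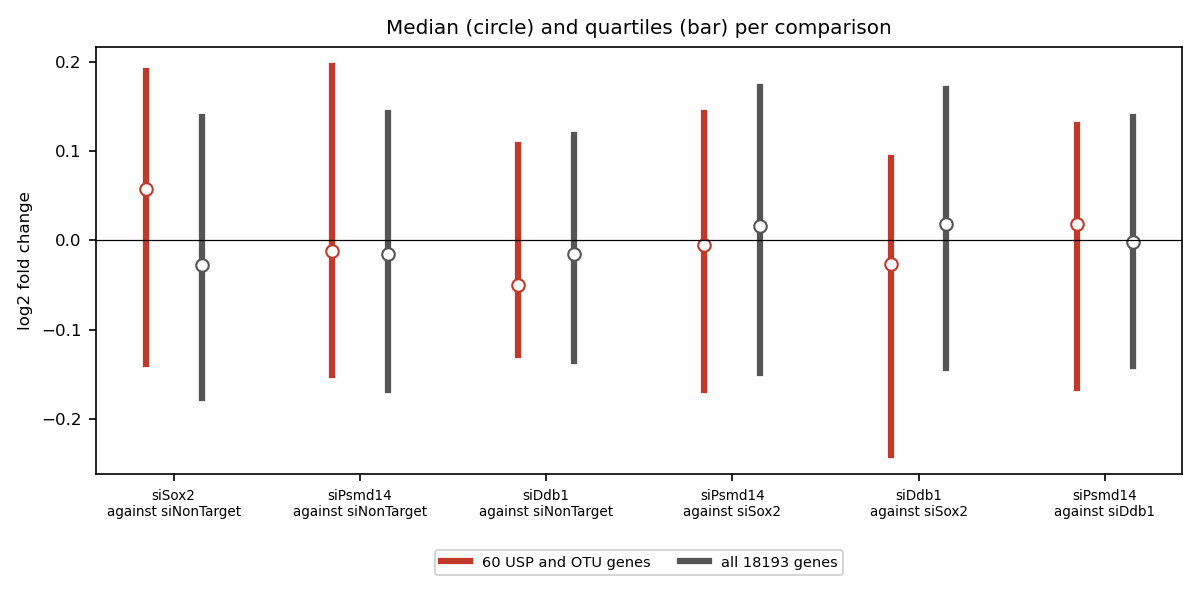
Median (circle) and lower to upper quartile (bar) of the log2 fold change over the 60 USP and OTU genes (red) and over all 18193 genes (grey), for each of the 6 comparisons. The medians of the 60 genes lie between -0.05 and 0.06 and the bars overlap those of all genes throughout.

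Of 61 other genes of the pathway on the lists, 53 were measured by a probe set with 1 symbol, and 3 of them passed in any comparison. The other 8 listed genes were not analysed here. Uchl1, a UCH-family deubiquitinase abundant in neurons and the germline, had log2 levels of 8.99 and 9.19 with siNonTarget, 8.16 and 8.24 with siSox2, 10.18 and 9.57 with siPsmd14, and 9.05 and 8.80 with siDdb1. The siSox2 arrays were the lowest and the siPsmd14 arrays the highest. It was higher in siPsmd14 than in siSox2 by 1.67 on the log2 scale (adjusted p = 0.00425), and the differences from siNonTarget of -0.89 in siSox2 and 0.78 in siPsmd14 did not pass (adjusted p = 0.0531 and 0.109).

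Senp5, a protease that removes SUMO, read 7.52 and 7.48 with siNonTarget, 8.02 and 8.05 with siSox2, 7.19 and 7.42 with siPsmd14, and 7.36 and 7.48 with siDdb1. The siSox2 arrays were the highest of the 8. Senp5 was lower in both other knockdowns than in siSox2, with a log2 difference of -0.73 for siPsmd14 (adjusted p = 0.0226) and -0.62 for siDdb1 (adjusted p = 0.0398), and the difference of 0.54 in siSox2 against siNonTarget did not pass (adjusted p = 0.0683). The third gene was Wdr20rt, described with Usp46.

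The remaining lists held no gene that passed. Among 9 USP and OTU enzymes with other names, the smallest p in siPsmd14 belonged to Otulin, which cuts linear chains (log2 difference -0.52, adjusted p = 0.0914), and in siSox2 to Tnfaip3, an inhibitor of NF-kappaB signalling (0.81, adjusted p = 0.129). Among 10 JAMM metalloproteases it was Stambp in siSox2 (0.53, adjusted p = 0.122), and among 7 enzymes of the Josephin, MINDY and ZUFSP families Mindy1 in siSox2 (-0.46, adjusted p = 0.0967). The ubiquitin-activating enzyme Uba6 had -0.41 in siPsmd14 (adjusted p = 0.300). Herc6, the ligase for ISG15 in mice, had -0.21 in siSox2 and -0.31 in siDdb1 (adjusted p = 0.509 and 0.577).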

How the data were processed

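RNA from 8 samples was measured on Affymetrix arrays, after amplification from 5 ng with the Ovation V2 system per the labels' protocols. The deposited intensity values were made by the authors with RMA, per the submitters' processing notes. No version or setting is recorded (not given in the sources used here). RMA in its usual form gives arrays the same distribution, so each change is relative to most other probe sets. The log2 was taken here. Of 45101 probe sets, 64 controls were left out, and of the remaining 45037, 34945 had 1 symbol, 932 several and 9160 none in GEO's platform annotation. Of these, 34741 were looked up by Entrez identifier and 0 were renamed.

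Groups came from the titles. The 8 arrays entered 1 linear model, fitted by lmFit and eBayes without trend in limma 3.58.1 (R 4.3.3), with Benjamini-Hochberg adjustment over all probe sets. Every interval comes from it, and so does every p-value except those given for a named alternative. The number of arrays limits the precision. On simulated data for siSox2 against siNonTarget, 54% of changes of 1 log2 unit and 90% of 2 were recovered, with 7 false calls. In the simulation, 100 probe sets changed by each size out of 45037. These shares need not hold where more or fewer probe sets change. Simulated noise need not match that of the arrays.

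The members and lists were chosen with earlier results of these data known. Named were members that passed, the 4 smallest p-values per side and knockdown and the 3 smallest in each direct comparison. Also named were Usp1, Usp7, Usp9x, Usp14, Usp18, Usp22, Usp28, Usp39, Otub1, Otud5, 2 members per role by F test, and from other lists those that passed or had the smallest p. Other members are named after their values were seen. Alternatives were leaving out each array or the dimmer 50% of probe sets, other scalings and offsets, limma settings, blocks, thresholds and the mean of a gene's probe sets.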

Additional observations from a re-analysis of the deposited data

How the results depend on the processing

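Counts of USP and OTU genes that passed are small, so a gene or so moves them. In siSox2 against siNonTarget the count of 1 ran from 0 to 4 as each array was left out. It was 4 with a replicate block that crossed the siDdb1 numbers (chosen after seeing the data) and with p adjusted over genes, 3 with array medians subtracted, 2 with trend and robust settings, with 2 groups only or with the mean of a gene's probe sets, and 0 with log2 of the value plus 16 or an adjusted p of 0.01. In siPsmd14 against siNonTarget the count of 0 ran from 0 to 1, and was 1 with the crossed block or 2 groups only. In siPsmd14 against siSox2 the count of 1 ran from 0 to 1. It was 2 with the replicate block, the crossed block, the dimmer 50% left out, quantile normalization, trend and robust settings, the mean of probe sets or p adjusted over genes, and 0 with the offset of 16 or an adjusted p of 0.01. In siDdb1 against siSox2 the count of 4 ran from 0 to 3. It was 2 with the replicate block or medians subtracted, 1 with 2 groups only, and 0 with the offset of 16 or an adjusted p of 0.01. In siPsmd14 against siDdb1 the count of 0 ran from 0 to 2, and in siDdb1 against siNonTarget it was 0 in every alternative run. Where a count moved, the cause was not tested.

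Over 34 gene results, 539 of 608 values under the alternatives kept direction and side of the threshold. Of the rest, 27 newly passed, 42 no longer passed and 0 reversed. Most of these results had not passed in the main fit, and still not passing counted as kept. All 42 losses fell on the calls that had passed, so the pooled count says little about those calls. Usp28 in siSox2 passed in 14 of 18 alternatives, Usp44 and Usp28 in siDdb1 against siSox2 in 14 and 13, Usp46 in 13 and 6, and Usp50 in 5 of 17. Deviations of same-numbered arrays correlated between groups with r from -0.217 to 0.242, and no label says what a number stands for, so the numbers were not taken as pairs. Signal over background could not be recomputed without scanner files, and dim members such as Usp50 are limited by it.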
